A study of Homo sapiens with 54 samples.

Results

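The genes described here are those of the G1 cyclin-dependent kinase module: the D-type cyclins CCND1, CCND2 and CCND3, the E-type cyclins CCNE1 and CCNE2, the kinases CDK2, CDK4 and CDK6, and the inhibitors CDKN1B and CDKN1C. They were taken by symbol from the gene table of the series and make 10 of its 58870 genes. The series measured RNA by sequencing. Its cells were A549, a human lung adenocarcinoma line, and carried either an insertless vector (empty-vector cells) or a vector expressing the deubiquitinase USP18 (USP18 cells). Each vector stands for a single engineered A549 population. Both populations were treated for 48 h with the vehicle DMSO, with the compound coded CP2 at 2 or 5 µM, or with the compound coded CP14 or CP18 at 1, 2.5 or 5 µM, which gives 18 groups of 3 replicates and 54 libraries.

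D-type cyclins bind CDK4 and CDK6 and E-type cyclins bind CDK2, and these kinases phosphorylate the retinoblastoma protein so that E2F factors can drive entry into S phase. CDKN1B (p27) and CDKN1C (p57) bind and restrain cyclin-kinase complexes, chiefly those of CDK2. USP18 removes the ubiquitin-like modifier ISG15 from proteins, and cyclin D1 protein is among the reported targets of this pathway in lung cancer cells. RNA was measured here, and protein amounts were not analysed.

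Library totals ran from 16673228 to 25609062 counts with a median of 19701304. Levels are given as CPM, counts relative to the TMM-scaled size of the library, and log2 fold changes come from edgeR's quasi-likelihood test, in which a gene passed when its p, adjusted over all tested genes, was under 0.05. The USP18 transcript lay between 8.649 and 12.25 CPM in the 27 empty-vector libraries and between 952.6 and 2115 CPM in the 27 USP18 libraries, so every library matched its vector label. In USP18 cells the USP18 transcript was higher by 0.64 on the log2 scale with 5 µM CP14 than with vehicle, whereas in empty-vector cells it was lower, with a log2 fold change of -0.18, and both passed. It was lower in USP18 cells by a log2 fold change of -0.09 with 2 µM CP2, -0.33 with 1 µM CP14, -0.14 with 2.5 µM CP14, and -0.41, -0.30 and -0.24 with 1, 2.5 and 5 µM CP18, all of which passed. Its response differed between the populations with 5 µM CP14 (0.82), 1 µM CP14 (-0.29) and 1 µM CP18 (-0.41). Of the 5 epithelial markers KRT8 and KRT18 were abundant in all libraries (1264 to 6277 and 1658 to 5175 CPM), CDH1 had 21.1 to 238 CPM, KRT19 3.62 to 50.7 CPM and EPCAM 1.33 to 14.8 CPM. Of the 4 alveolar type II markers SFTPA1 and SFTPB had no counts, SFTPC at most 7 and NKX2-1 at most 15, and their summed level ran from 0.187 to 0.336 CPM in empty-vector and 0.289 to 0.491 CPM in USP18 cells with vehicle, against 0 to 0.108 and 0.459 to 0.742 CPM with 5 µM CP14. With vehicle 4 epithelial markers were lower and KRT19 was higher (log2 fold change 2.63) in USP18 than in empty-vector cells, and the summed level, nearly all KRT8 and KRT18, was 11284 to 11559 CPM in empty-vector and 7238 to 7435 CPM in USP18 libraries. With 5 µM CP14 the sum was 4332 to 4592 CPM in empty-vector and 2995 to 3193 CPM in USP18 cells. Of the 5 epithelial markers 4 passed as lower in each population, and 1 passed as higher in USP18 cells. Of the 3 leukocyte markers CD3E had no counts and PTPRC at most 7, and the summed level, nearly all CD68, ran from 36.3 to 38 CPM in empty-vector and from 32.1 to 35.6 CPM in USP18 cells with vehicle, against 62.5 to 72.3 and 94 to 99.3 CPM with 5 µM CP14. The summed fibroblast markers went from 11.5 to 14.6 CPM with vehicle to 6.6 to 7.06 CPM with 5 µM CP14 in empty-vector cells, and from 8.06 to 8.27 to 4.3 to 4.6 CPM in USP18 cells. Of the 2 fibroblast markers tested, 1 was higher and 1 lower in USP18 than in empty-vector cells with vehicle. Their responses to 5 µM CP14 also differed between the populations, 1 higher and 1 lower. The part of these shifts in the results was not tested. In bulk libraries a change in the mix of cells, such as in cell cycle phases, and a change of RNA per cell cannot be told apart. The labels do not say whether replicates were separate cultures, so p-values measure only the spread between these libraries, which may be technical.

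With vehicle, CCND1 was the most abundant member and CCND2 had at most 2 counts in a library. To set genes side by side, levels were divided by the length of all annotated exons of a gene, such as 12.239 kb for CDK6 and 4.761 kb for CCND1. The transcripts expressed in these cells may be shorter, so the order of genes depends on the annotation. In empty-vector cells these levels were 94.2 CPM per kb for CCND1, 47.9 for CCND3, 45.9 for CDK4, 17.7 for CDK2, 11.7 for CCNE1, 9.36 for CDK6, 7.69 for CDKN1B, 2.40 for CCNE2 and 0.315 for CDKN1C. In USP18 cells the same quantity was 104 CPM per kb for CCND1, 45.9 for CDK4, 21.7 for CDK2 and 13.7 for CCND3. By this measure CCND3 stood below both kinases there. In empty-vector cells it had ranked after CCND1 and close to CDK4 (SD 0.94 for CCND3 and 1.48 for CDK4). The inhibitor CDKN1C rested on 13 to 22 counts per library with vehicle and CCNE2 on about 10 CPM, so their values are less precise than those of the other members.

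**Figure D1:**
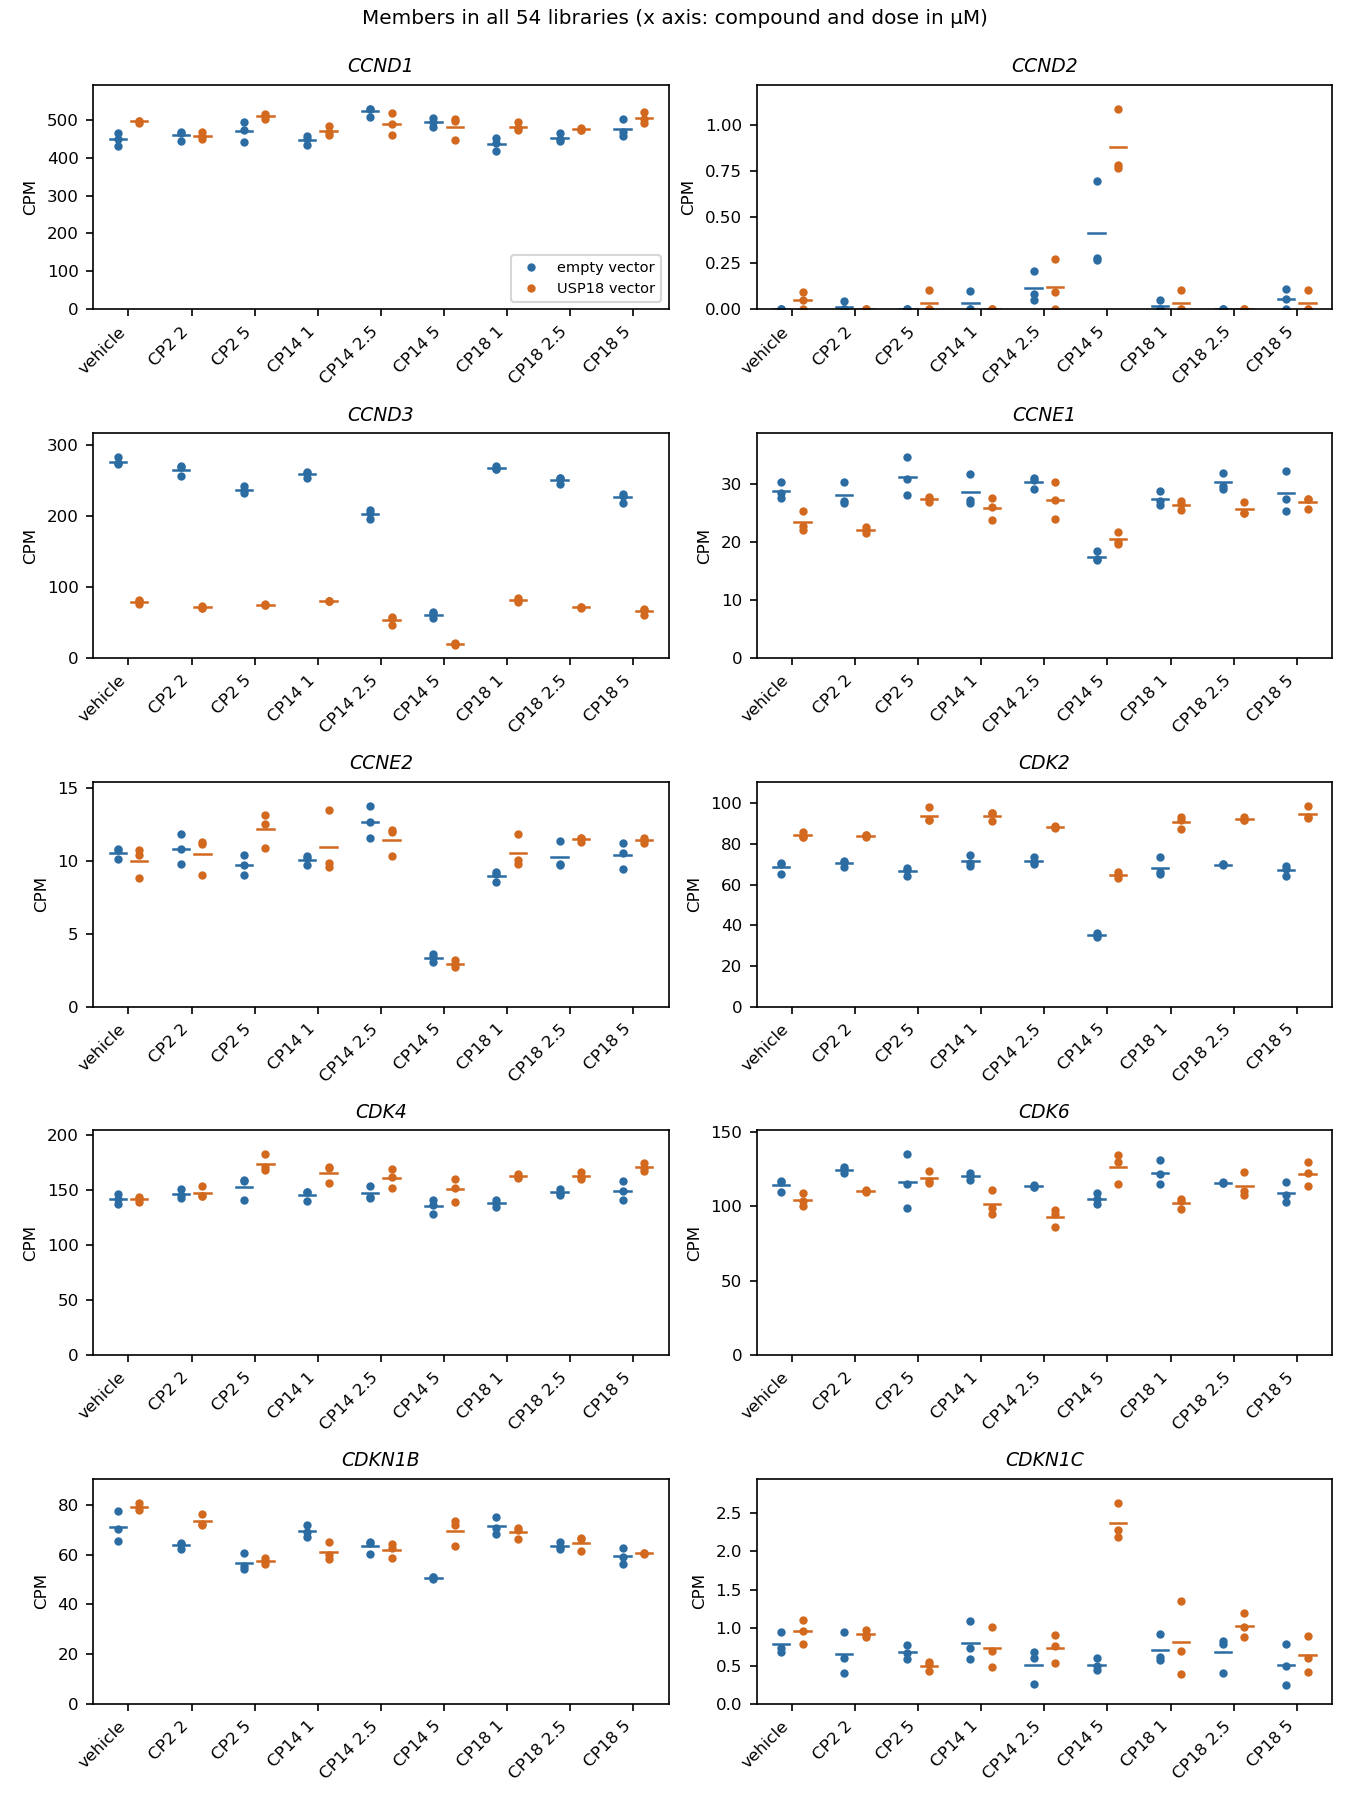
Level of each member in CPM in all 54 libraries, 1 panel per gene, with vehicle and the 8 treatments on the x axis, the vectors in color, points for replicates and a bar for the group mean. CCND3 is lower in USP18 than in empty-vector libraries within every treatment, and CCNE2 and CDK2 stand low in the groups with 5 µM CP14.

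Of the 10 members 5 had promoter windows in the RefSeq table used here (GRCh38.p14), and CCND1, CCND2, CCNE2, CDK2 and CDKN1C had none. The 250 bases before a start are shown for CCND3, CCNE1 and CDKN1B, because these members fell with 5 µM CP14 in both cell populations and have a window without annotated untranslated bases. Capitals mark the GC box GGGCGG and the CCAAT box CCAAT on either strand. The CCND3 window, 1 of 3 listed for the gene, lies at chr6:41941809-41942058 on the minus strand, inside the gene and directly before the start of a shorter transcript. The CCNE1 window lies at chr19:29811741-29811990 on the plus strand. The CDKN1B window lies at chr12:12717118-12717367 on the plus strand, also inside its annotated gene. The starts used in these cells were not tested.
CCND3: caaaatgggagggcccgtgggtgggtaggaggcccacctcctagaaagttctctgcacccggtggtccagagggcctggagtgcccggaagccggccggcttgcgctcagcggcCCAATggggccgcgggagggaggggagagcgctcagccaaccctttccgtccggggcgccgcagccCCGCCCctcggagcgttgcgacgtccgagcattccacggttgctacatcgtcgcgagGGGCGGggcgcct
CCNE1: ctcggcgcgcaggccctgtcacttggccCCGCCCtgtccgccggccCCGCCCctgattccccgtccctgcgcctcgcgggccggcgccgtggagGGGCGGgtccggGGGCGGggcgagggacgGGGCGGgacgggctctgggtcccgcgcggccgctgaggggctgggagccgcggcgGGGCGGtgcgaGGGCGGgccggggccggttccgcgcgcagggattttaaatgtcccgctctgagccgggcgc
CDKN1B: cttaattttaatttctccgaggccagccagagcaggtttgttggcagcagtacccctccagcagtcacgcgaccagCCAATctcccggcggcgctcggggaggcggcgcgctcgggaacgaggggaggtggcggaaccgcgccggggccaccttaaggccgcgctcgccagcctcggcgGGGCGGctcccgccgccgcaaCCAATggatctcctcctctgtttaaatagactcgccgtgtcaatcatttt

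The CCNE1 window held 7 GC boxes and no CCAAT box. The CCND3 window held 2 GC boxes and 1 CCAAT box, and the CDKN1B window 1 GC box and 2 CCAAT boxes. Of the CCND3 windows not shown, the one at chr6:42048689-42048938 held 5 GC boxes and 0 CCAAT boxes. The one at chr6:41939206-41939455 held 0 GC boxes and 1 CCAAT box. Among 35116 promoter windows of 250 bases, 42.6% held a GC box and 32% a CCAAT box. The E2F letters TTTCCCGC or TTTGGCGC, held by 1.93% of windows, the E-box CACGTG, held by 6.34%, and the AP-1 letters TGANTCA, held by 6.57%, were absent from all 3 windows shown, on both strands. These matches describe the sequence and are not binding sites.

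The first comparison asked how the members differed between the cell populations before treatment. CCND3, which codes for cyclin D3, was the member with the largest difference, at 272, 273 and 282 CPM in the empty-vector replicates and 79.8, 75.6 and 81 CPM in the USP18 replicates. The ranges were far apart, and CCND3 was 3.53-fold lower in USP18 cells (log2 fold change -1.82, SE 0.0298, edgeR adjusted p = 1.88e-18). CCND1, the cyclin D1 gene, went the other way, with 450, 432 and 464 CPM in empty-vector and 498, 491 and 497 CPM in USP18 replicates (log2 fold change 0.13, SE 0.026, adjusted p = 3.13e-04). CDK2, the partner of the E cyclins, had 70.5, 65.2 and 70.2 CPM in empty-vector and 86.1, 83.2 and 83.4 CPM in USP18 replicates and was 1.22-fold higher (adjusted p = 5.14e-06). CCNE1, which codes for cyclin E1, had 30.2, 28.4 and 27.6 CPM against 25.4, 22 and 22.8 CPM and was 1.24-fold lower (adjusted p = 8.98e-04). In these members the groups did not overlap.

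CDK6 was lower by a log2 fold change of -0.14 in USP18 cells (adjusted p = 0.0041), with 117, 117 and 109 CPM in empty-vector and 109, 103 and 101 CPM in USP18 replicates, and a fit of all 54 libraries gave an adjusted p of 0.0626. CDKN1B was higher by 0.15 (adjusted p = 0.0139), and without the third empty-vector vehicle library the difference was 0.09 (adjusted p = 0.0941). CDK4 did not pass, with 142, 137 and 146 against 144, 143 and 140 CPM and an interval of the log2 difference from -0.07 to 0.05. CCNE2 did not pass either (interval -0.28 to 0.09), nor did CDKN1C (log2 fold change 0.27, adjusted p = 0.493). In all, 6 of the 9 members tested passed, 3 higher and 3 lower, where 57.6% of all genes passed. CCND3 alone also had a log2 difference over 1, which 10.1% of all genes had. The median log2 difference was -0.01 for the members, which went both ways, and -0.01 for all genes.

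Treatment with 5 µM CP14 gave the widest changes among the members. CCND2 passed the filter on low counts only in the comparisons that hold this treatment, where it is high, so it is left out of the counts and described on its own. In empty-vector cells 7 of the other 9 members passed against vehicle, 1 higher and 6 lower, beside 63.2% of all genes, and 2 of them exceeded a log2 change of 1, as did 13.8% of all genes. In USP18 cells 7 of 9 passed, 2 higher and 5 lower, beside 68.6% of all genes, and 3 exceeded a log2 change of 1, as did 18% of all genes. The median log2 change of these 9 members was -0.60 in empty-vector and -0.18 in USP18 cells, beside 0.01 for all genes in each. CCND3, CCNE1, CCNE2, CDK2 and CDKN1B passed as lower in both populations. The share of members that passed was near the background, and the fitted changes of single members follow by role.

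Among the D cyclins, CCND3 fell with 5 µM CP14 while CCND1 hardly moved. CCND3 was at 56, 62.6 and 64.6 CPM in treated empty-vector replicates and at 18.8, 19.1 and 21.6 CPM in treated USP18 replicates. All of these lay below every vehicle library of their population. The fall was 4.52-fold in empty-vector cells (log2 fold change -2.18, SE 0.0466, edgeR adjusted p = 2.63e-19) and 3.95-fold in USP18 cells (log2 fold change -1.98, SE 0.0583, adjusted p = 1.76e-17). The level with 5 µM CP14 in empty-vector cells, 61.1 ± 4.52 CPM (SD, n = 3), was thus below that of vehicle-treated USP18 cells, 78.8 ± 2.82 CPM. Over the 18 groups CCND3 means spanned 3.79 on the log2 CPM scale, the widest range among members with counts in all groups, and all 9 USP18 groups lay below all empty-vector groups but the one with 5 µM CP14. At the low end of this order, the groups with 2.5 µM CP14 in USP18 cells, 5 µM CP14 in empty-vector cells and 5 µM CP18 in USP18 cells each overlapped with the next of the 3, the group with 5 µM CP14 in USP18 cells stood below them, and the next group up, 2 µM CP2 in USP18 cells, did not overlap with 5 µM CP18.

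CCND1 had 495, 480 and 505 CPM with 5 µM CP14 in empty-vector cells, above the 3 vehicle libraries (log2 fold change 0.13, SE 0.0391, adjusted p = 0.0052). USP18 replicates had 446, 495 and 502 CPM, which overlapped with vehicle (log2 fold change -0.03, adjusted p = 0.454, interval -0.11 to 0.04). Over all 18 groups CCND1 means spanned 0.26 on the log2 CPM scale, from 436 CPM with 1 µM CP18 to 522 CPM with 2.5 µM CP14, both in empty-vector cells, and no groups next to each other in the order were apart. Exons of CCND1 share 10.4% of their bases with LTO1 on the opposite strand. The strand setting of the counting is not given in the sources used here, and LTO1 was higher by 0.71 in empty-vector and 1.07 in USP18 cells with 5 µM CP14.

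The balance among D cyclins differed between the groups. Its shares use the same exon lengths, so their size depends on the annotated transcripts. CCND3 made up 33.3%, 34.4% and 33.4% of the summed D-cyclin level per kb in vehicle-treated empty-vector replicates and 11.7%, 11.3% and 11.9% in vehicle-treated USP18 replicates. With 5 µM CP14 the shares were 8.55%, 9.72% and 9.57% in empty-vector and 3.37%, 3.08% and 3.43% in USP18 replicates. With 2.5 µM CP14 they were 23.4%, 25.3% and 24.2% in empty-vector and 6.95%, 8.86% and 9.14% in USP18 replicates, so within each population the groups with vehicle, 2.5 µM and 5 µM CP14 did not overlap.

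**Figure D2:**
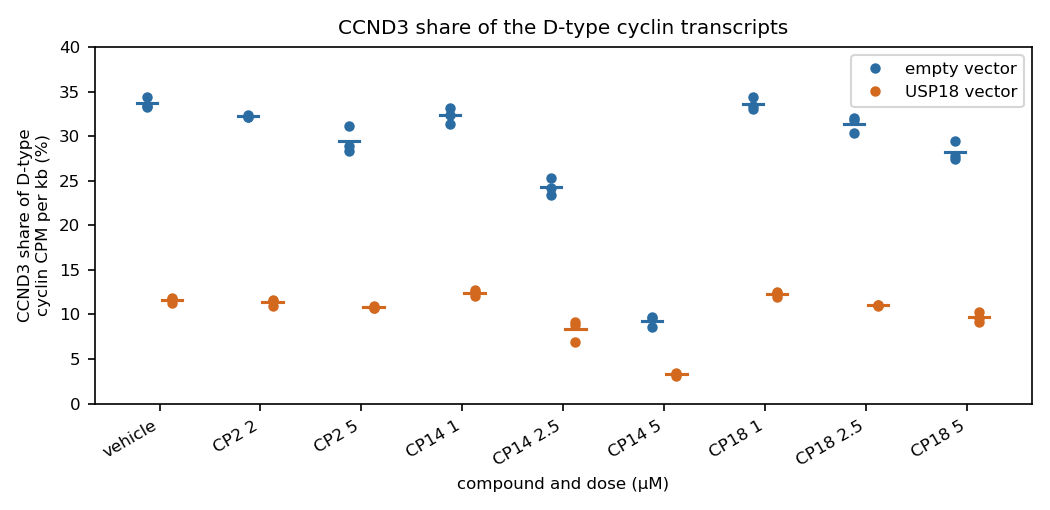
Share of CCND3 in the summed CCND1, CCND2 and CCND3 level per kb of exon, in percent, for each library by group, with points for replicates and a bar for the mean. The vehicle libraries of empty-vector cells lie at 33.3% to 34.4% and those of USP18 cells with 5 µM CP14 at 3.08% to 3.43%.

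CCND2, the cyclin D2 gene, had no counts in the 3 vehicle libraries of empty-vector cells and 1, 0 and 2 counts in those of USP18 cells. With 5 µM CP14 it had 5.12, 14.28 and 5.09 counts in empty-vector replicates, or 0.27, 0.696 and 0.276 CPM, and 16.44, 21.59 and 15.45 counts in USP18 replicates, or 0.781, 1.09 and 0.765 CPM. In no other group did a library exceed 5 counts. In empty-vector cells CCND2 was at least 2.9-fold higher than a floor of 3 counts per vehicle library, or at least 1.91-fold without treated replicate 2, which holds most of the counts. In USP18 cells the ratio of summed counts per library size was 17.9, with a 95% exact interval from 5.8 to 89.5 that covers counting error only. This ratio rests on 3 vehicle counts, 2 of them in replicate 3, and was not computed with a library left out. The treated group alone carried CCND2 past the filter, so its p-values from the filtered fit are not given. With no filter beyond a count above 0, its edgeR adjusted p was 2.18e-06 in empty-vector and 4.23e-07 in USP18 cells. Both were the lowest over the alternatives run and rest on the few counts given. Over 286 values of members, that setting gained 13 calls and lost 0. Even at its highest CCND2 was far below the other D cyclins, and 12.5% of its exon bases are shared with another annotated gene on the same strand.

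The E cyclins, which activate CDK2 late in G1, both fell with 5 µM CP14. CCNE2 was at 10.8, 10.1 and 10.7 CPM with vehicle and 3.62, 3.08 and 3.37 CPM with 5 µM CP14 in empty-vector cells. The USP18 replicates were at 10.4, 8.79 and 10.7 CPM with vehicle and 2.93, 2.72 and 3.16 CPM with 5 µM CP14. The treated libraries lay below all others of the series, the lowest of which had 8.5 CPM. The fall was 3.15-fold in empty-vector cells (log2 fold change -1.65, SE 0.12, adjusted p = 9.65e-11) and 3.37-fold in USP18 cells (log2 fold change -1.75, SE 0.122, adjusted p = 3.79e-11). The difference between these responses was -0.10 with an interval from -0.44 to 0.25. Exons of CCNE2 share 37% of their bases with INTS8 on the opposite strand, and INTS8 was lower by 0.19 and 0.42 in the same comparisons. The part of INTS8 reads in the CCNE2 counts was not tested.

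CCNE1 went from 30.2, 28.4 and 27.6 CPM to 18.4, 17.1 and 16.8 CPM in empty-vector cells, a 1.65-fold fall (log2 fold change -0.72, SE 0.0733, adjusted p = 2.26e-08). In USP18 cells it went from 25.4, 22 and 22.8 CPM to 21.6, 19.9 and 19.7 CPM, and the treated libraries were below vehicle by a narrow margin (log2 fold change -0.18, SE 0.073, adjusted p = 0.03). This smaller call did not hold without vehicle replicate 1 (-0.11, adjusted p = 0.249) or 3, or without treated replicate 2 or 3, nor with DESeq2 (adjusted p = 0.0691), library totals alone (0.136) or all 54 libraries (0.0507). The fall was larger in empty-vector than in USP18 cells (interaction 0.54, SE 0.104, adjusted p = 5.17e-04).

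Among the kinases CDK2 fell in both populations, and CDK6 moved in opposite directions. CDK2 was at 70.5, 65.2 and 70.2 CPM with vehicle and 36.2, 34.5 and 35.3 CPM with 5 µM CP14 in empty-vector cells, a 1.95-fold fall (log2 fold change -0.96, SE 0.0458, adjusted p = 8.36e-14). USP18 cells went from 86.1, 83.2 and 83.4 CPM to 63.3, 66.1 and 64.8 CPM, a 1.29-fold fall (log2 fold change -0.37, SE 0.0419, adjusted p = 8.24e-08). Treated empty-vector cells thus held the lowest CDK2 level of all groups, apart from the next, and treated USP18 cells overlapped with untreated empty-vector cells. Exons of CDK2 share 14.5% of their bases with an antisense transcript and 2.29% with PMEL.

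CDK6, a partner of the D cyclins, was at 105, 102 and 109 CPM with 5 µM CP14 in empty-vector cells, just below the lowest vehicle library (log2 fold change -0.12, SE 0.0489, adjusted p = 0.0338). That call did not hold without vehicle replicate 1 or 2 or without treated replicate 1 or 2, where the change ran from -0.16 to -0.10 over all libraries left out, nor with library totals alone (adjusted p = 0.193) or all 54 libraries in the fit (0.117). In USP18 cells CDK6 was at 115, 130 and 134 CPM, above the vehicle values of 109, 103 and 101 CPM, a 1.22-fold rise (log2 fold change 0.29, SE 0.0485, adjusted p = 2.26e-05). CDK4, the other D-cyclin kinase, had 129, 137 and 141 CPM in empty-vector cells and 140, 152 and 161 CPM in USP18 cells, overlapped with vehicle in both and did not pass (log2 fold changes -0.07 and 0.09, adjusted p = 0.195 and 0.063). In USP18 cells it did pass with RLE scaling (adjusted p = 0.0434), library totals alone (0.0036), a minimum of 10 counts in every library (0.0217) and DESeq2 (0.0493). It also passed without treated replicate 1 (0.16, adjusted p = 0.00104) or vehicle replicate 1 (0.12, 0.048). Exons of CDK4 share 44.2% of their bases with TSPAN31 on the opposite strand, whose change was 0.16 in empty-vector and -0.08 in USP18 cells.

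The inhibitors responded unequally. CDKN1B was at 70.3, 77.5 and 65.7 CPM with vehicle and 50.1, 50.9 and 50.9 CPM with 5 µM CP14 in empty-vector cells, a 1.4-fold fall (log2 fold change -0.49, SE 0.0576, adjusted p = 2.18e-07). In USP18 cells it went from 80.9, 78.1 and 79.3 CPM to 63.6, 73.5 and 72.2 CPM (log2 fold change -0.18, SE 0.055, adjusted p = 0.0068). Without treated replicate 1 of the USP18 cells that change was -0.10 (adjusted p = 0.11), and with library totals alone its adjusted p was 0.0679. In USP18 cells the vehicle replicates had 22, 16 and 20 counts of CDKN1C and the replicates with 5 µM CP14 had 54, 46 and 43, or 1.1, 0.786 and 0.962 CPM against 2.64, 2.28 and 2.19 CPM. This was a 2.5-fold rise (log2 fold change 1.32, SE 0.262, adjusted p = 1.39e-04), and the treated group stood above the other 17 groups. In empty-vector cells its counts were 20, 13 and 17 for vehicle and 11, 9 and 9 for 5 µM CP14, and it did not pass (log2 fold change -0.60, SE 0.331, adjusted p = 0.119).

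**Figure D3:**
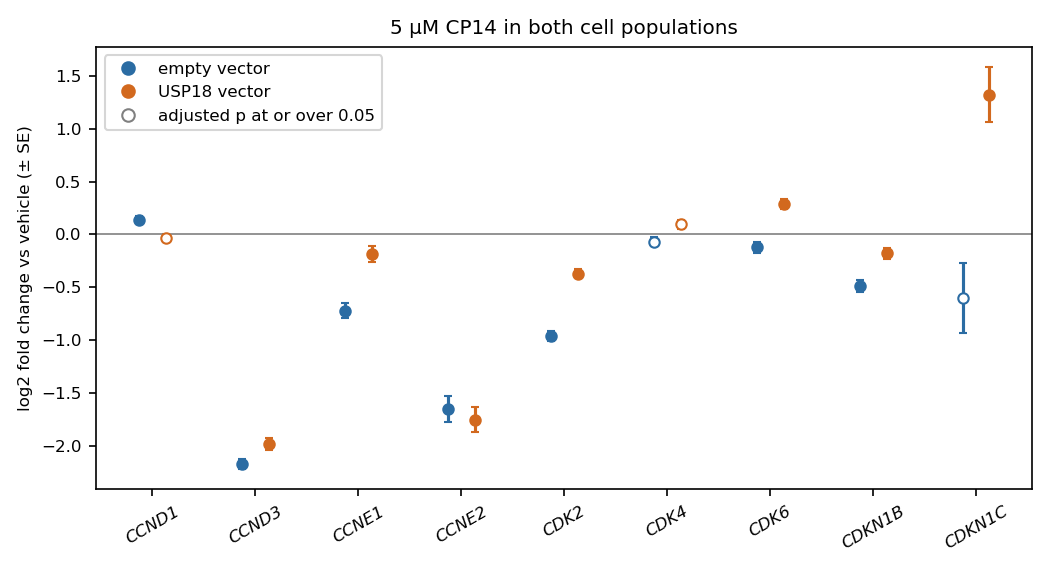
Log2 fold change of each member with 5 µM CP14 against vehicle in empty-vector and USP18 cells, with bars of 1 standard error and open symbols where the adjusted p was at or over 0.05 (CCND2 is left out). CCND3 and CCNE2 lie together below -1.6 in both populations, whereas CCNE1, CDK2, CDK6, CDKN1B and CDKN1C lie higher in USP18 cells.

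The difference in response between the populations at 5 µM CP14 was tested as an interaction, USP18 minus empty-vector cells. It passed for 6 of 9 members, 5 higher and 1 lower, beside 27.7% of all genes. CDKN1C had the largest difference (1.92, SE 0.422, adjusted p = 0.00162), followed by CDK2 (0.59, SE 0.0622, adjusted p = 4.5e-07), CCNE1 (0.54), CDK6 (0.41, SE 0.0689, adjusted p = 1.27e-04) and CDKN1B (0.31, SE 0.0797, adjusted p = 0.00589). CCND1 differed by -0.17 (SE 0.0553, adjusted p = 0.0274). The CCND1 difference did not hold without empty-vector vehicle replicate 2, any 1 of the USP18 vehicle replicates, treated empty-vector replicate 1 or 3, or treated USP18 replicate 1, the last of which gave -0.11 (adjusted p = 0.0718). CCND3 and CDK4 did not pass (0.20 and 0.16, adjusted p = 0.0643 and 0.06). For CCND3 the adjusted p was 0.043 with library totals alone, 0.0362 with a minimum of 10 counts, 0.0467 with replicate numbers as a block and 0.0488 with all 54 libraries. For CDK4 it was 0.0496 with RLE scaling, 0.0401 with library totals alone, 0.0321 with a minimum of 10 counts and 0.00347 without treated USP18 replicate 1, and it passed as well without empty-vector vehicle replicate 2 or treated empty-vector replicate 3. CCND3 passed without treated empty-vector replicate 3 (0.0391) or treated USP18 replicate 1 (0.0327). The interval of the CCND3 difference ran from 0.04 to 0.35, beside log2 changes of -2.18 and -1.98.

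At lower doses CP14 changed fewer members. With 2.5 µM CP14, 2 members passed in empty-vector cells, 1 higher and 1 lower, beside 15.1% of all genes, and 5 passed in USP18 cells, 2 higher and 3 lower, beside 32.7%. Summed epithelial markers ran from 9647 to 10223 CPM in empty-vector and 5889 to 6368 CPM in USP18 cells, below vehicle in both. Summed leukocyte markers, nearly all CD68, ran from 36.7 to 39.4 and from 45.6 to 57.3 CPM, the latter above vehicle. Summed fibroblast markers ran from 9.33 to 11.5 and from 5.77 to 6.5 CPM. The part of these shifts in the results was not tested. CCND3 had 195, 207 and 204 CPM in empty-vector cells (log2 fold change -0.44, SE 0.0465, adjusted p = 7.9e-06) and 46.9, 57.3 and 56 CPM in USP18 cells (-0.56, SE 0.0561, adjusted p = 5.44e-07), below all vehicle libraries in both. CCND1 had 529, 507 and 529 CPM in empty-vector cells and was higher than with vehicle (0.22, SE 0.0371, adjusted p = 6.76e-04), but not in USP18 cells (-0.01, adjusted p = 0.82), and this was the 1 member whose response differed between the populations (interaction -0.23, SE 0.0524, adjusted p = 0.01), where 8% of all genes differed. In USP18 cells CDK4 was higher (0.19, adjusted p = 0.00104), CDKN1B lower (-0.35, adjusted p = 5.53e-05) and CDK6 lower (-0.16, adjusted p = 0.0108). The CDK6 call was lost without USP18 vehicle replicate 1 (-0.13, adjusted p = 0.0669) or treated replicate 1 (-0.11, 0.0588). CCNE1, at 27.1, 30.4 and 24 CPM, overlapped with vehicle and passed at 0.23 (adjusted p = 0.0311), which was lost without USP18 vehicle replicate 2 or 3 or treated replicate 1 or 2, the last at 0.13 (adjusted p = 0.22), and in a fit of only the 2 groups (0.0555). With all 54 libraries the adjusted p of CDK6 was 0.0571.

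With 1 µM CP14 no member passed in empty-vector cells, where 1 had an unadjusted p under 0.05, DESeq2 called 0 and 0.861% of all genes passed. In USP18 cells 3 passed, 2 higher and 1 lower, beside 15.3% of all genes. CDKN1B had 58.4, 59.8 and 65.1 CPM in treated USP18 cells, below vehicle (log2 fold change -0.38, adjusted p = 1.3e-04), and CDK4 and CDK2 were higher (0.23 and 0.16, adjusted p = 2.11e-04 and 0.00751). The interaction passed for 2 members, beside 5.79% of all genes: CDKN1B (-0.36, SE 0.0763, adjusted p = 0.011) and CDK4 (0.19, SE 0.0482, adjusted p = 0.0295). The CDK4 difference was lost without empty-vector vehicle replicate 1 or 3, any 1 of the USP18 vehicle replicates, treated empty-vector replicate 2 (0.16, adjusted p = 0.0916) or treated USP18 replicate 1 or 2, and with all 54 libraries (0.128).

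With CP18 the changes that passed were at most 0.40 in log2 size. With 1 µM no member passed in empty-vector cells, where 2 had an unadjusted p under 0.05, DESeq2 called 0 and 0.368% of all genes passed. In USP18 cells CDK4 was higher (161, 162 and 165 CPM, log2 fold change 0.20, adjusted p = 4.42e-04) and CDKN1B lower (69.9, 71 and 66.4 CPM, -0.20, adjusted p = 0.0121), so 2 passed beside 15.7% of all genes. The CDKN1B change was -0.17 (adjusted p = 0.0655) without treated replicate 3. The interaction passed for 1 member, CDK4 (0.23, SE 0.044, adjusted p = 0.00512), beside 7.19% of all genes. For CDKN1B it was -0.22 (adjusted p = 0.0738) and passed with the replicate block (0.0351), DESeq2 (0.0425), library totals alone (0.0498), no filter (0.0162) and without empty-vector vehicle replicate 2 (0.016). With 2.5 µM CP18, 1 member passed in empty-vector cells beside 5.96% of all genes, namely CCND3 (-0.13, adjusted p = 0.00679), which was lost without treated replicate 1 (-0.11, 0.0549) and with all 54 libraries (0.0765). In USP18 cells 4 passed, 2 higher and 2 lower, beside 14.2%: CDK4 (0.20, adjusted p = 1.01e-04), CDK2 (0.13, 0.016), CCND3 (-0.15, 0.00597) and CDKN1B (-0.29, 4.64e-04). CDK2 did not pass without USP18 vehicle replicate 2 or 3 or treated replicate 1. No member passed the interaction, where 2 had an unadjusted p under 0.05, DESeq2 called 0 and 0.197% of all genes passed.

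With 5 µM CP18 CCND3 had 228, 218 and 231 CPM in empty-vector and 67, 69.3 and 60.2 CPM in USP18 cells, below all vehicle libraries of each population (log2 fold changes -0.28 and -0.27, adjusted p = 0.00117 and 0.00184). CDKN1B was also lower in both (-0.25 and -0.40, adjusted p = 0.0124 and 1.15e-04), and in empty-vector cells its call was lost without vehicle replicate 2 (-0.18, 0.0975) and in a fit of only the 2 groups (0.0847). These were the 2 members that passed in empty-vector cells, beside 8.4% of all genes. In USP18 cells 5 passed, 3 higher and 2 lower, beside 10.7%, with CDK4 (0.26, adjusted p = 7.39e-04), CDK2 (0.17, 0.0224) and CDK6 (0.22, 0.0152) higher. CDK2 was lost without USP18 vehicle replicate 2 or 3 or treated replicate 1, and CDK6 without vehicle replicate 2 or 3 or treated replicate 1 or 3. The interaction passed for 0 members, where 3 had an unadjusted p under 0.05, DESeq2 called 0 and 0.268% of all genes passed.

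CP2 was given at 2 and 5 µM. With 2 µM, 1 member passed in empty-vector cells beside 1.84% of all genes, namely CDK6 (125, 122 and 127 CPM, log2 fold change 0.13, adjusted p = 0.0491), and this was lost when any 1 of the 6 libraries was left out. In USP18 cells CCND1 (-0.11) and CCND3 (-0.15) were lower with an adjusted p of 0.0396 each, so 2 passed beside 1.13% of all genes. The CCND1 call was lost when any 1 of the 6 libraries was left out, and the CCND3 call when any but vehicle replicate 2 was, with adjusted p from 0.0229 to 0.225. No member passed the interaction, where 2 had an unadjusted p under 0.05, DESeq2 called 1 and 0.0569% of all genes passed. With 5 µM CP2 CDKN1B fell in both populations, to 55.3, 54.4 and 60.7 CPM in empty-vector and 58.6, 56.2 and 57.5 CPM in USP18 cells (-0.30 and -0.48, adjusted p = 0.00159 and 7.72e-06). CCND3 was lower in empty-vector cells (232, 236 and 241 CPM, -0.20, adjusted p = 4.01e-04), which made 2 members beside 12.1% of all genes. In USP18 cells 4 passed, 3 higher and 1 lower, beside 19%, with CDK4 at 168, 172 and 183 CPM (0.28, adjusted p = 2.41e-04), CDK2 at 0.15 (0.0158) and CCNE2 at 0.28 (0.0481) higher. CDK2 was lost without USP18 vehicle replicate 2 or 3 or treated replicate 1, and CCNE2 when any library but treated replicate 3 was left out, with the replicate block (0.0607), with RLE scaling (0.0506) and with DESeq2 (0.108). In USP18 cells the 4 other members with an unadjusted p under 0.05 lay near the threshold. CCND3 had a log2 fold change of -0.09 (adjusted p = 0.0918) and passed without vehicle replicate 2 (-0.13, 0.0456). CDKN1C had a log2 fold change of -0.93 (adjusted p = 0.0503, or 0.0499 with RLE scaling). CCNE1 had 0.21 (adjusted p = 0.057) and passed with library totals alone (0.0494), no filter (0.0206), only the 2 groups (0.0127), all 54 libraries (0.0378) and without vehicle replicate 1 (0.0386). CDK6 had 0.18 (adjusted p = 0.0934) and passed with no filter (3.7e-04), only the 2 groups (9.09e-04) and all 54 libraries (0.0375). The interaction passed for 0 members, where 5 had an unadjusted p under 0.05, DESeq2 called 0 and 0.92% of all genes passed.

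Across the treatments other than 5 µM CP14, CDK4 passed as higher than vehicle in 6 of 7 comparisons of USP18 cells and in none of 7 in empty-vector cells. In the latter, 5 µM CP2 passed with no filter (adjusted p = 0.0299) and without treated replicate 1 (0.17, 0.00981). In these comparisons 1.13% to 32.7% of all genes passed in USP18 cells, in either direction, and 0.368% to 15.1% in empty-vector cells. The share of all genes was higher in USP18 cells with every treatment but 2 µM CP2. The CDK4 response differed between the populations with 1 µM CP18 under every alternative run (adjusted p up to 0.0345), and with 1 µM CP14 only with the dependence on single libraries given above. With the other treatments of this count the difference in the CDK4 response did not pass in the main fit. CDKN1B passed as lower in 6 of the same 7 comparisons of USP18 cells and in 2 of 7 in empty-vector cells. The last count became 5 without empty-vector vehicle replicate 3, adding 2 µM CP2 (-0.21, adjusted p = 0.0119), 2.5 µM CP14 (-0.22, 0.00938) and 2.5 µM CP18 (-0.21, 0.00956), it was 5 with no filter, and it was 1 without vehicle replicate 2. The CDKN1B response differed between the populations with 1 µM CP14 and, in the main fit, with no other treatment of this count. These comparisons share the 3 vehicle libraries of their population, so they are not independent of each other.

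**Figure D4:**
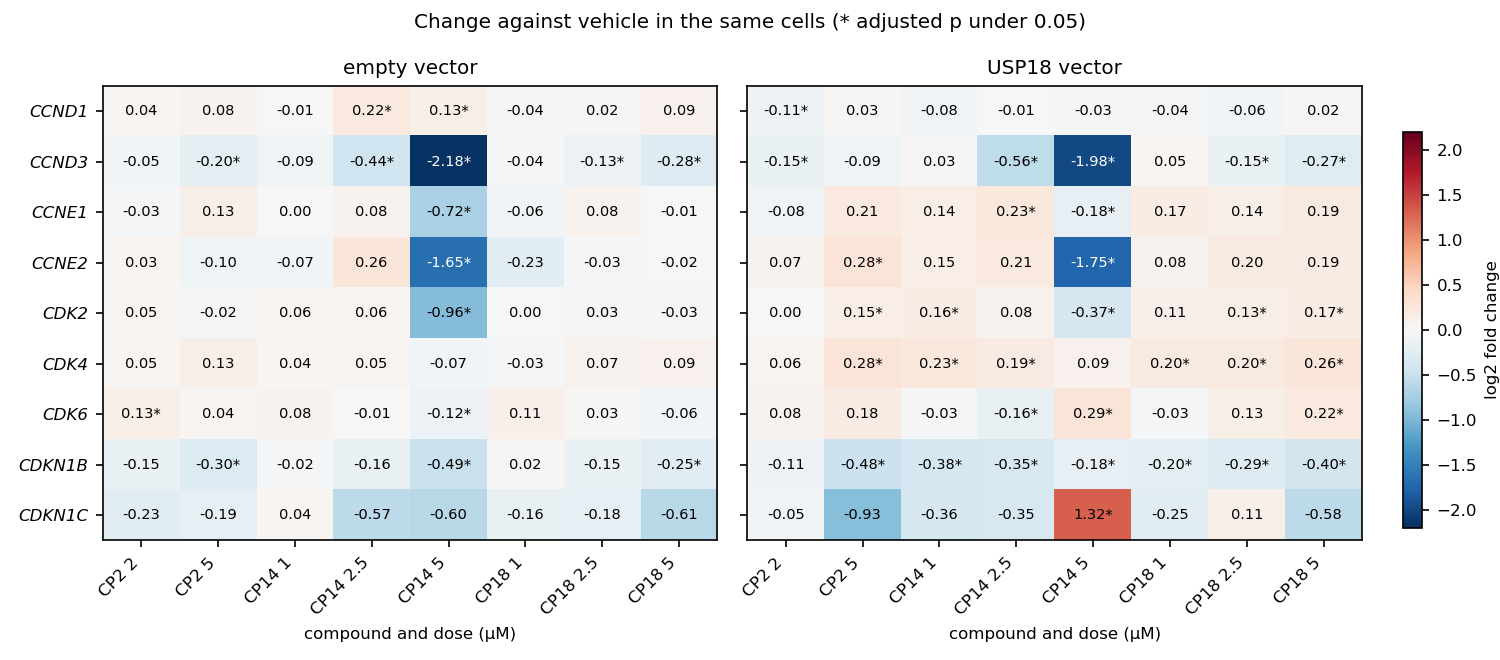
Log2 fold change of each member against vehicle for the 8 treatments in empty-vector and USP18 cells, in color, with a star where the adjusted p was under 0.05 (CCND2 is left out). The columns with 5 µM CP14 hold the deepest falls, for CCND3 and CCNE2 in both populations, and the CDK4 row is higher in most columns of USP18 cells.

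CP14 and CP18 were compared directly at the matched doses of 2.5 and 5 µM, which made 4 pairs over both populations. CP2 was not compared with them. At 2.5 µM in empty-vector cells 2 members passed, 1 higher and 1 lower with CP14, beside 1.8% of all genes. CCND3 was lower with CP14 than with CP18 (log2 difference -0.31, adjusted p = 0.00285 over all genes and 3.91e-06 over the 4 pairs) and CCND1 higher (0.20, adjusted p = 0.00925 and 1.2e-04). The CCND1 difference was lost without CP14 replicate 1 or 3 or CP18 replicate 3, with an adjusted p of up to 0.061. CCNE2 was higher with CP14 by 0.29 (interval 0.10 to 0.47), which passed over the 4 pairs (adjusted p = 0.00903) but not over all genes (0.126). In USP18 cells 2 members passed beside 28.2% of all genes, CCND3 (-0.40, adjusted p = 3.79e-05 and 1.72e-06) and CDK6 (-0.29, 2.38e-04 and 6.05e-05), both lower with CP14. For CDK4 the intervals at this dose ran from -0.10 to 0.06 in empty-vector and from -0.08 to 0.07 in USP18 cells, and for CDK2 from -0.04 to 0.10 and from -0.12 to 0.01.

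At 5 µM the compounds differed, CCND2 set aside, in 6 of 9 members in empty-vector cells, all lower with CP14, beside 57.5% of all genes, and in 7 of 9 in USP18 cells, 2 higher and 5 lower, beside 64.9%. CCND3 was lower with CP14 by -1.89 in empty-vector and -1.71 in USP18 cells (adjusted p over the 4 pairs 4.9e-17 and 2.39e-15). CCNE2 differed by -1.63 and -1.94, CDK2 by -0.93 and -0.54 and CCNE1 by -0.71 and -0.38 in the same order, and each passed over all genes and over the pairs. CDKN1B was lower with CP14 in empty-vector cells (-0.24, adjusted p = 0.00232 and 0.00255) and higher in USP18 cells (0.22, adjusted p = 0.00266 and 0.00255). CDKN1C was higher with CP14 in USP18 cells (1.90, adjusted p = 6.62e-05 and 8.74e-05), and in empty-vector cells the interval ran from -0.83 to 0.86. CCND2 had 24 summed counts with CP14 and 3 with CP18 in empty-vector cells, a ratio of 7.88 with a 95% exact interval from 2.39 to 40.9, and CP14 replicate 2 held most of the 24. This ratio was 5.09 without CP14 replicate 2, 5.06 without CP18 replicate 3 and 16 without CP18 replicate 1. In USP18 cells it had 53 and 2, a ratio of 26.2 with an interval from 6.91 to 222. Both CP18 counts lay in replicate 3, so without that library no ratio can be formed. Both intervals cover counting error only.

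CDK4 was lower with 5 µM CP14 than with CP18 by -0.15 in empty-vector and -0.17 in USP18 cells (adjusted p = 0.0338 and 0.0149 over all genes). The first was lost without CP14 replicate 1 (-0.12, 0.134) or 2 or CP18 replicate 3, and the second without CP14 replicate 1 (-0.12, 0.0873) or CP18 replicate 3 (-0.15, 0.0525). With library totals alone neither passed (adjusted p = 0.13 and 0.0663), and in a fit of only the 2 groups the first did not (0.0515). No difference passed for CCND1, with intervals from -0.05 to 0.14 in empty-vector and -0.15 to 0.05 in USP18 cells, or for CDK6, with intervals from -0.18 to 0.07 and from -0.05 to 0.19.

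From 2.5 to 5 µM CP14, again without CCND2, 5 of 9 members changed in empty-vector cells, all lower, beside 58.8% of all genes, and 7 changed in USP18 cells, 3 higher and 4 lower, beside 61.6%. Between these doses CCND3 fell by 1.73 on the log2 scale in empty-vector and 1.41 in USP18 cells. The log2 difference was -1.91 and -1.94 for CCNE2, -1.02 and -0.43 for CDK2, and -0.80 and -0.40 for CCNE1. In a fit on only the 2 groups CDK4 (-0.12, adjusted p = 0.0178), CDK6 (-0.11, 0.0127) and CCND1 (-0.08, 0.0296) were also lower in empty-vector cells, which made 8 of 9, and CDK4 passed there with no filter (0.0365) and with all 54 libraries (0.026) too. CCNE2 and CDK2 had not been lower than vehicle at 2.5 µM in either population. CDKN1B was lower by -0.32 in empty-vector cells and higher by 0.19 in USP18 cells, where the doses overlapped (adjusted p = 0.00527). In USP18 cells CDK6 was higher by 0.47 and CDKN1C by 1.69 at the upper dose (adjusted p = 4.2e-07 and 1.05e-04). CCND2 had 7 summed counts at 2.5 µM in each population, and the ratios to 5 µM were 3.79 (interval 1.58 to 10.4) in empty-vector and 7.74 (3.51 to 20.2) in USP18 cells, where the 95% exact intervals cover counting error only. The empty-vector ratio rested on 5 µM replicate 2, without which it was 2.45 (interval 0.841 to 7.57). It was 6.16 (1.87 to 31.9) without 2.5 µM replicate 1. In USP18 cells 2.5 µM replicate 3 held 5 of the 7 counts, and the ratio was not computed without it.

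A list of 31 other genes that control passage from G1 to S was read beside the members, and 28 were tested. With 5 µM CP14, 24 passed in empty-vector cells, 8 higher and 16 lower with a median of -0.17, beside 63.2% of all genes. In USP18 cells 21 passed, 8 higher and 13 lower with a median of -0.12, beside 68.6%. Their interaction passed for 7, 5 higher and 2 lower, beside 27.7% of all genes, and 17 differed between the populations with vehicle, 6 higher and 11 lower, beside 57.6%. The shares for the interaction and for vehicle were near the background. Among those with the largest falls were CDKN2C, an INK4-type inhibitor of CDK4 and CDK6 (-2.51 in empty-vector and -2.46 in USP18 cells), CCNA2, the S-phase cyclin A2 (-2.12 and -1.95), E2F2 in empty-vector cells (-1.98) and E2F1 in USP18 cells (-2.18). The largest rise was that of CDKN1A, the p21 inhibitor, from 279 to 692 CPM in empty-vector cells (1.31, adjusted p = 6.27e-18) and from 106 to 440 CPM in USP18 cells (2.07). It was followed by CCNH (0.67) and E2F5 (0.48) in empty-vector cells and by MYC (1.31) and FOXO3 (0.66) in USP18 cells. CDKN2A and CDKN2B, which are deleted in A549 cells, had 0 counts in all 54 libraries.

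**Figure D5:**
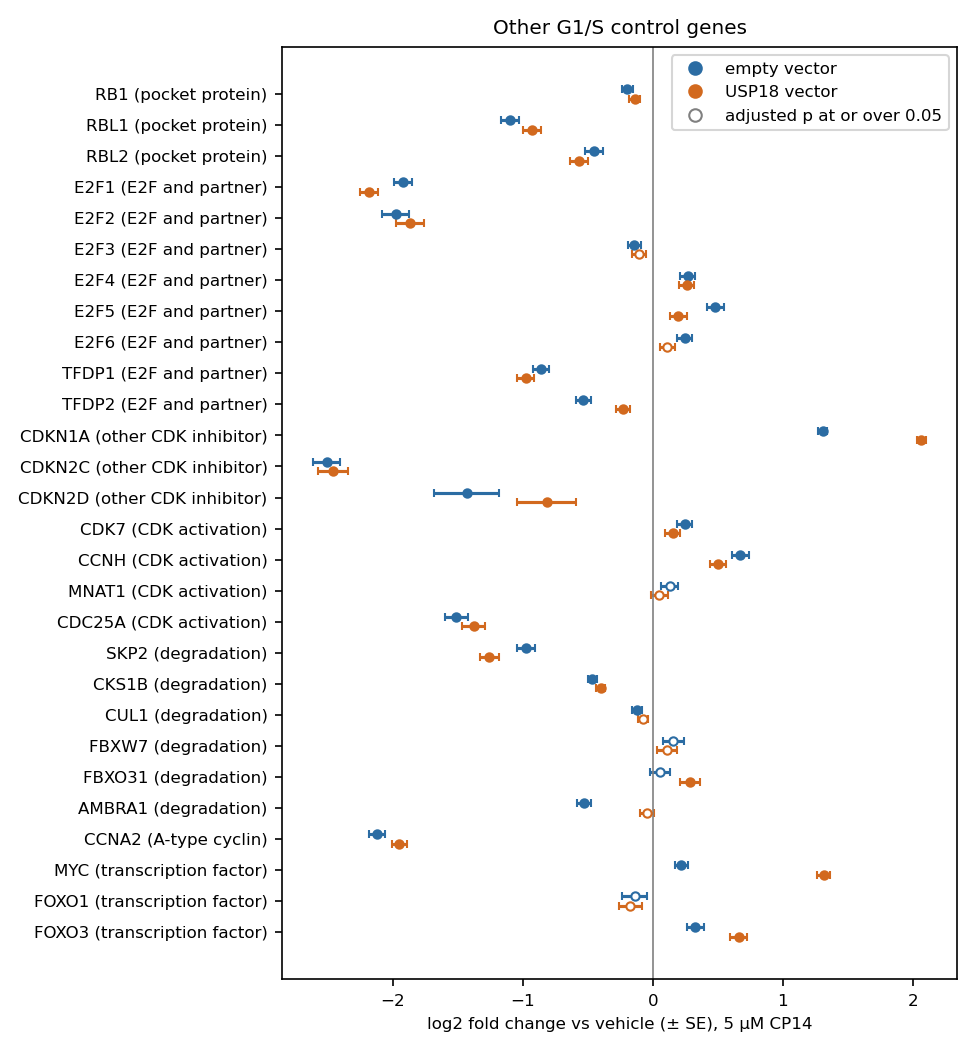
Log2 fold change of the other G1 to S control genes with 5 µM CP14 against vehicle in empty-vector and USP18 cells, by role, with bars of 1 standard error and open symbols where the adjusted p was at or over 0.05. CDKN2C lies lowest and CDKN1A highest in both populations.

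Of the members tested in every comparison, CCND3 and CDKN1C had the widest ranges over the groups. Among 13855 genes with a mean of at least 1 CPM, those whose group-mean log2 CPM followed CCND3 most closely over the 18 groups were CGN (Pearson r = 0.9956), CYB5A (0.9933) and HYAL1 (0.9927). The closest to CDKN1C were ZNF3 (0.9312), CBLL1 (0.8628) and ARID3A (0.8627). These correlations describe 18 groups that share their vector and treatment, and for CDKN1C they rest mainly on the single group that stands apart.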

How the data were processed

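RNA from A549 cells with either vector was sequenced after 48 h of treatment. According to the methods and the submitters' processing notes, Cutadapt 1.18 trimmed the reads and STAR 2.7.0f placed them on hg38. RSEM counted them, in version 1.3.1 by the processing notes, while the methods name a later version. The authors deposited RSEM's expected counts, 1 column per library and unscaled, of which 94.05% were whole numbers. The labels describe poly(A) capture with a strand-specific kit and the methods describe depletion of ribosomal RNA, and the annotation that the methods name for RSEM is a mouse one while the identifiers are human. Groups and replicates came from the labels. The 54 pairs of replicates within groups had a chi-square per gene of 1.81 to 11.1, so they differed by more than counting error. No known technical repeat was at hand for comparison, so these values do not settle whether replicates were separate cultures or libraries.

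After rounding, edgeR 4.0.16 in R 4.3.3 was used with TMM scaling and its quasi-likelihood test, and p-values were adjusted by Benjamini-Hochberg over all genes that filterByExpr kept (minimum count 10, minimum total 15). Each compound and dose was fitted with vehicle in both populations (12 libraries), the vehicle populations on 6 libraries, and CP14 against CP18 and the CP14 dose step on 12 libraries each. Replicates were taken as unpaired. For the compounds, p-values were also adjusted over the 4 pairs. Intervals are the estimate ± 1.96 standard errors. A gene whose group had no counts was compared with a floor of 3 counts per library. Gene coordinates and exon lengths came from GENCODE v44 (GRCh38), in which CCND3 lies on chromosome 6 from 41934934 to 42050357, CDK2 on chromosome 12 from 55966781 to 55972789 and CDKN1C on chromosome 11 from 2883213 to 2885775. The procedure was tested on simulated data. Alternatives were RLE size factors, library totals alone, no filter, at least 10 counts in every library, DESeq2 1.42.0, a replicate block, only the 2 groups compared, a fit on all 54 libraries, and fits that each left out 1 library.

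All 10 members were tested where the filter kept them, and the text names those that passed and, where it bears on a comparison, others. Of the pathway list, up to 3 passing genes per direction with the largest change at 5 µM CP14 are named, and for the 2 members with the widest range the 3 genes of most like pattern. The members and lists were chosen with earlier results of these data known.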

Additional observations from a re-analysis of the deposited data

Results flagged for a closer look

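A response that differed between empty-vector and USP18 cells by a test of the difference itself was found for the following members, each as the log2 response in USP18 minus that in empty-vector cells. With 5 µM CP14 the difference was 1.92 for CDKN1C, 0.59 for CDK2, 0.54 for CCNE1, 0.41 for CDK6, 0.31 for CDKN1B and -0.17 for CCND1. With 2.5 µM CP14 it was -0.23 for CCND1. With 1 µM CP14 it was -0.36 for CDKN1B and 0.19 for CDK4, and with 1 µM CP18 it was 0.23 for CDK4. The calls for CCND1 with 5 µM CP14 and for CDK4 with 1 µM CP14 depended on single libraries, as given above. The summed levels of epithelial and of fibroblast markers, CD68 and the USP18 transcript also differed between the populations and with 5 µM CP14. With 2.5 µM CP14 the CD68 response differed between the populations by 0.56, and 1 epithelial marker passed that test as well. The USP18 response differed with 1 µM CP14 and 1 µM CP18, as given above. The part of these shifts in the differences of the members was not tested.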

How the results depend on the processing

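No called change of a member reversed under the alternatives that were run. The count of members that passed changed by over 1.5 times in the following comparisons. For 2 µM CP2 in empty-vector cells (1 passed), no filter gave 2, the replicate block 0, only the 2 groups 0 and all 54 libraries 0, and leaving out 1 library gave 0 to 1. For 2 µM CP2 in USP18 cells (2 passed), library totals alone gave 0, the replicate block 1, only the 2 groups 1 and all 54 libraries 0, and leaving out 1 library gave 0 to 1. For the interaction of 2 µM CP2 (0 passed), no filter gave 1 and DESeq2 1. Leaving out 1 library gave 2 to 4 for 5 µM CP2 in USP18 cells, 3 to 5 for 2.5 µM CP14 in USP18 cells, 1 to 2 for 1 µM CP18 in USP18 cells, 3 to 5 for 5 µM CP18 in USP18 cells and 1 to 2 for CP14 against CP18 at 2.5 µM in empty-vector cells. For the interaction of 1 µM CP14 (2 passed), all 54 libraries gave 1 and leaving out 1 library 1 to 2. For that of 2.5 µM CP14 (1 passed), no filter gave 3 and leaving out 1 library 1 to 2. For that of 1 µM CP18 (1 passed), library totals alone, no filter, the replicate block and DESeq2 each gave 2, and leaving out 1 library 1 to 2. For 2.5 µM CP18 in empty-vector cells (1 passed), no filter gave 2, all 54 libraries 0 and leaving out 1 library 0 to 2. For 5 µM CP18 in empty-vector cells (2 passed), only the 2 groups gave 1 and leaving out 1 library 1 to 2. For the step from 2.5 to 5 µM CP14 in empty-vector cells (5 passed without CCND2), only the 2 groups gave 8. For the interaction of 5 µM CP18 (0 passed), no filter gave 1, all 54 libraries 1 and leaving out 1 library 0 to 1. The cause of these shifts was not tested.

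Same-numbered replicates did not deviate together (correlations from -0.161 to 0.14), so the numbers were not taken as pairs. With the replicate block, of 286 values 3 lost their call and 2 gained one. Of 2154 values with 1 library left out, 81 lost their call and 21 gained one. Counts of a few per library limit CCND2 and CDKN1C. Other scalings moved the median of all genes by at most 0.0603.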
